A study of Mus musculus with 9 samples.

Results

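The genes followed here are 32 genes of sterol and fatty acid synthesis and of its control by the sterol regulatory element-binding proteins (SREBPs). They were chosen by symbol from a table of 34714 gene symbols, with earlier results of these data known. They are 18 enzymes of the mevalonate and sterol pathway, 6 regulators and carriers (Srebf1, Srebf2, Scap, Insig1, Insig2 and Stard4) and 8 enzymes of fatty acid synthesis as a separate arm. The RNA came from cortex of mice in 3 groups of 3 samples, sequenced in bulk after selection of poly(A) RNA. The groups were mice that received Au18(L-NIBC)14 on top of experimental autoimmune encephalomyelitis (EAE, the rodent model of multiple sclerosis), mice with EAE alone, and naive controls. The labels number the brains 1 to 3 within each group. Au18(L-NIBC)14 is a gold nanocluster with N-isobutyryl-L-cysteine ligands, named by the series title as directed at oligomerisation of ASC, the inflammasome adaptor. The sources used here do not give strain, age, sex, dose, schedule, way of induction or the day on which tissue was taken. All 32 members were in the table and all passed the filter on low counts, with no fewer than 293 counts in any library.

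SREBPs are made as membrane proteins of the endoplasmic reticulum. When membrane sterol is low, the escort protein SCAP carries them to the Golgi, where proteases free the part that enters the nucleus and activates genes. When sterol is plentiful, INSIG proteins hold SCAP back. The product of Srebf2 mainly drives sterol synthesis, and those of Srebf1 mainly drive fatty acid synthesis. The brain makes its own cholesterol, because lipoproteins of the blood do not cross an intact blood-brain barrier. Oligodendrocytes use it for myelin, and astrocytes also supply it to neurons.

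The 250 bases before each listed promoter start were searched for short motifs in RefSeq promoter sequences (GRCm38.p6). These held 33 promoters for 25 of the 32 members. The motifs were a sterol regulatory element (SRE, TCACNCCAC), the CCAAT box (CCAAT, bound by NF-Y, a factor known to act together with SREBPs), the GC box (GGGCGG, bound by Sp1) and an E-box (CACGTG), each on both strands. The windows below are those of the called members that have 1 promoter entry, and show the last 150 bases before the start, 5′ to 3′ on the gene's strand, with SRE and CCAAT matches of either strand in capitals. A CCAAT box read on the other strand appears as ATTGG.
Hmgcs1 (chr13:119690201-119690350, + strand): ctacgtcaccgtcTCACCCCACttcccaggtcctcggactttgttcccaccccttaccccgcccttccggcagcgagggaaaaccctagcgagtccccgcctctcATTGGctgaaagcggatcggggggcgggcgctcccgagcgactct
Mvd (chr8:122443423-122443572, - strand): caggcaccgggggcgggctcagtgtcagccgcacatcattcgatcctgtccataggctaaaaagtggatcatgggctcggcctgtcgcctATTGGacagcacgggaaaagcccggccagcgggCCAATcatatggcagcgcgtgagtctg
Idi1 (chr13:8885456-8885605, + strand): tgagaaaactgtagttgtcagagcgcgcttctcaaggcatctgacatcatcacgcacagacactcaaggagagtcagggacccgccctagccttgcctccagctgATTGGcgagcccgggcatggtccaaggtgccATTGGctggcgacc
Cyp51 (chr5:4104698-4104847, - strand): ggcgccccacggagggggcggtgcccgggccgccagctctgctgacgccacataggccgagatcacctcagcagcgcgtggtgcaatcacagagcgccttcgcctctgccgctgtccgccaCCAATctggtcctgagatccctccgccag
Nsdhl (chrX:72918371-72918520, + strand): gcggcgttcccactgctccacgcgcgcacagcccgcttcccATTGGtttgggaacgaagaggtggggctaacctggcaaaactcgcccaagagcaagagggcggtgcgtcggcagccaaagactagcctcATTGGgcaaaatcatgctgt
Srebf2 (chr15:82147119-82147268, + strand): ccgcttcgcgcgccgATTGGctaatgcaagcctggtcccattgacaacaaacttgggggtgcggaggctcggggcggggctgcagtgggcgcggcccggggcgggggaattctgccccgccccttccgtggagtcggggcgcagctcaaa

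A CCAAT box lay in at least 1 promoter of 14 of the 15 sterol synthesis enzymes with an entry, of 4 of 5 regulators and carriers and of 1 of 5 fatty acid enzymes. Among all 27025 genes of the promoter table, 37.5% had one. The shares of all genes and all promoters here were not limited to genes that passed the filter on low counts, as all members did. The sets compared are thus unlike in expression. The 5 regulators and carriers had 10 promoters, which favours them in a count of at least 1 promoter per gene. Per promoter, the box lay in 14 of 18 of the sterol enzymes and 5 of 10 of the regulators and carriers. It lay in 1 of 5 promoters of fatty acid enzymes and in 33.8% of all promoters. The single fatty acid gene with the box was Fasn, the fatty acid synthase gene, in which 2 of 3 matches overlapped. Not every listed start was the outer edge of its gene. The start used was 84195438 for Acaca (gene edge 84129635) and 120824547 for Fasn (gene edge 120825166). The shares of the fatty acid enzymes include both windows. The GC box lay in 14 of 15 sterol enzymes, 5 of 5 regulators and carriers and 2 of 5 fatty acid enzymes, against 35.4% of all genes. Per promoter the GC box counts were 15 of 18, 7 of 10 and 2 of 5, against 32.7% of all promoters. The full SRE was found in Hmgcs1 alone among the 25 members, 137 to 129 bases before its start, and in 1.22% of all genes. The E-box lay in 3 of 15 sterol enzymes, 2 of 5 regulators and carriers and 0 of 5 fatty acid enzymes, against 6.86% of all genes. Per promoter the E-box counts were 3 of 18, 2 of 10 and 0 of 5, against 6.02% of all promoters. A CCAAT box also lay before members that edgeR called in no comparison, among them Mvk, Pmvk, Lss, Ebp and Hsd17b7. Whether the motifs go with the changes in RNA was not tested. Matches are letters in a window and no measure of binding, and no test was made of these shares.

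Total counts were 27725592 to 42809145 in treated, 28734022 to 30579938 in EAE and 26972179 to 45243553 in naive libraries. Markers of cortical excitatory neurons were abundant in every library (6 genes summed to 4880 to 6066 CPM, CPM being counts relative to the library total, scaled by TMM factors). The tissue makeup varied within groups. Summed over 12 myelin markers, treated replicate 1 had 2975 CPM and treated replicate 3 had 9761 CPM, the ends of the range. The sum of 6 striatal markers ran from 180 to 1287 CPM, with both ends in naive libraries. Choroid plexus markers, 6 genes, differed between groups as well, with sums of 8.08 to 17.8 CPM in treated, 25.6 to 896 CPM in EAE (the highest in replicate 1) and 11.9 to 44.6 CPM in naive libraries. No library was a copy of another of its own group, the pairs that were checked, and the labels name no batch.

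EAE was set against naive cortex to see what the disease changed. RNA of the sterol pathway was lower in EAE at almost every step. Together the 18 sterol enzymes summed to 704 to 753 CPM in EAE and 1047 to 1098 CPM in naive libraries. All 18 had a fold change below 0, with a median log2 fold change of -0.44, where the median over all 18644 genes tested was -0.01. The edgeR quasi-likelihood test, adjusted by Benjamini and Hochberg over all genes, called 7 of the 18 lower and 0 higher. Over all 32 members 9 fell (28.1%), against 0.252% of all genes, and 1 rose (3.12%), against 0.735% of all genes (0.987% of all genes in either direction). At an unadjusted p under 0.05, 20 members were lower and 1 was higher, against 6.97% and 9.42% of all genes. In 16 of the 18 enzymes, and in 20 of the 32 members, every EAE library lay below every naive library, as in 11.8% of all genes. In 2 members, Srebf1 and Scap, every EAE library lay above, as in 12.2% of all genes. The members were chosen with earlier results of these data known, so these shares are no independent test of enrichment. In bulk RNA, fewer cells of a type and less RNA per cell cannot be told apart. In the same comparison 8 of 12 myelin markers had a fold change below 0 (median -0.32, 3 lower without overlap, 0 called), all 6 choroid plexus markers had one above 0 (median 1.87) and so had all 5 leukocyte markers tested (median 2.22). Of the 6 excitatory neuron markers, 4 had a fold change below 0 and 2 above (median -0.16, 0 called). The part of these cell types in the result was not tested.

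**Figure D1:**
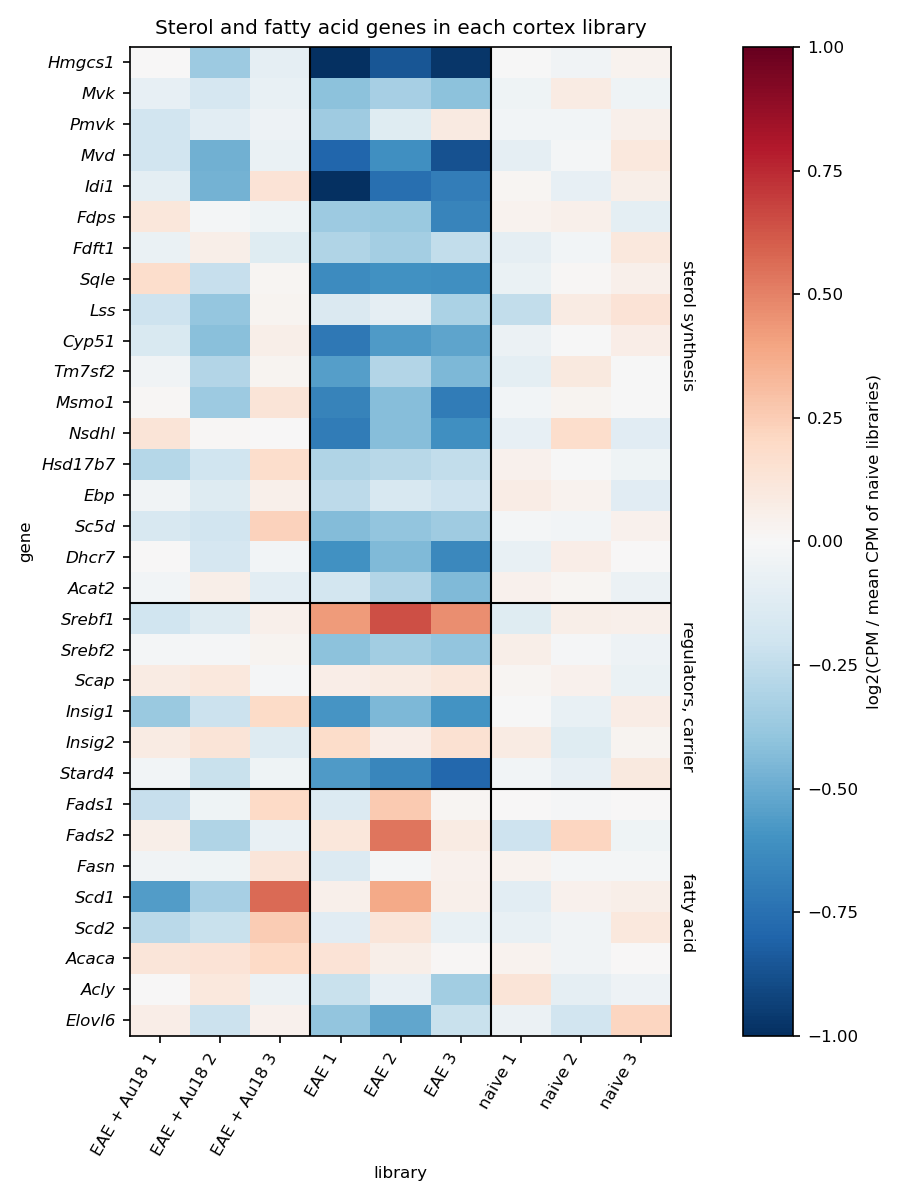
Heat map of 32 genes (rows, by arm) in 9 libraries (columns), coloured by log2 of CPM over the mean CPM of the 3 naive libraries, on a scale from -1 to 1. The 3 EAE columns are blue in the sterol synthesis rows, except Pmvk in EAE replicate 3, and red in Srebf1, while the fatty acid rows show no such block.

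Among the 18 enzymes the fold change of Hmgcs1 was the lowest. Hmgcs1 encodes the cytosolic HMG-CoA synthase, which builds the precursor of mevalonate (chromosome 13, 119690351 to 119708260, GRCm38). It had 155.5, 171 and 158 CPM in EAE libraries, against 309.6, 303 and 317 CPM in naive libraries. The EAE mean was 52.1% of the naive mean, without overlap, and the fold change was -0.94 on the log2 scale (SE 0.095, edgeR adjusted p = 0.0114). The middle steps make isoprenoid units and join them. Mvd, mevalonate diphosphate decarboxylase (chromosome 8, 122433596 to 122443422), had 14.2, 16.0 and 13.4 CPM in EAE, against 23.0, 24.1 and 26.4 CPM in naive libraries (-0.75, SE 0.12, edgeR adjusted p = 0.0280). The groups did not overlap. Idi1, the isopentenyl diphosphate isomerase, averaged 22.7 ± 2.53 CPM in EAE and 39.8 ± 2.03 CPM in naive cortex (SD, n = 3 each; log2 fold change -0.81, edgeR adjusted p = 0.0381). Mvk, mevalonate kinase (-0.38), and Fdps, farnesyl diphosphate synthase (-0.46), had edgeR adjusted p of 0.0551 and 0.0582, above the threshold of 0.05.

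Past squalene, 4 enzymes fell, namely Sqle, Cyp51, Nsdhl and Dhcr7. Sqle encodes squalene epoxidase, a rate-limiting oxygen-dependent enzyme (chromosome 15, 59315092 to 59331193). It had 41.2, 41.8 and 41.5 CPM in EAE, against 60.6, 64.2 and 66.0 CPM in naive libraries. The EAE values lay within 1 CPM of each other and below all naive values (-0.62, SE 0.095, edgeR adjusted p = 0.0280). Cyp51, lanosterol demethylase, fell by 0.60 on the log2 scale (SE 0.11, edgeR adjusted p = 0.0409). Nsdhl, which takes part in removing methyl groups from the sterol ring (chromosome X, 72918521 to 72958528), had 15.1, 18.2 and 16.0 CPM in EAE, against 23.1, 27.6 and 22.6 CPM in naive libraries (-0.57, SE 0.11, edgeR adjusted p = 0.0409). Dhcr7, the last reductase before cholesterol (chromosome 7, 143823167 to 143848410), had 22.1, 24.7 and 21.4 CPM in EAE, against 31.9, 35.1 and 33.6 CPM in naive libraries (-0.56, SE 0.084, edgeR adjusted p = 0.0260). In both genes all EAE values lay below all naive ones.

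The other 11 enzymes did not pass, with log2 fold changes of -0.59 to -0.12. They were Msmo1 (-0.59, edgeR adjusted p = 0.0596), Tm7sf2 (-0.42), Sc5d (-0.39), Acat2 (-0.30), Fdft1 (-0.30), Hsd17b7 (-0.28), Ebp (-0.21), Lss (-0.18) and Pmvk (-0.12), beside Mvk and Fdps. Lss, lanosterol synthase, and Pmvk, phosphomevalonate kinase, were the enzymes whose groups overlapped. Lss had 51.5, 53.5 and 45.8 CPM in EAE, against 48.1, 60.1 and 62.7 CPM in naive libraries, and its 95% interval ran from -0.46 to 0.11.

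The regulators split. Srebf2, the SREBP gene of the sterol arm (chromosome 15, 82147269 to 82205379), had 217, 228 and 220.1 CPM in EAE, against 302, 287 and 279 CPM in naive libraries. It fell by 0.38 (SE 0.061, edgeR adjusted p = 0.0280). Srebf1, the gene of the SREBPs of the fatty acid arm and itself a target of the oxysterol receptor LXR (chromosome 11, 60199084 to 60224186), had 92.2, 108 and 94.8 CPM in EAE, against 63.2, 71.7 and 71.1 CPM in naive libraries. It rose by 0.52 (SE 0.091, edgeR adjusted p = 0.0342), so every EAE library lay above every naive library for Srebf1 and below for Srebf2. Per length of merged exons, the ratio of Srebf1 to Srebf2 was 0.541, 0.602 and 0.549 in EAE, against 0.267, 0.319 and 0.324 in naive libraries.

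Stard4, a soluble carrier that moves cholesterol between membranes and is an SREBP target, had 27.1, 25.5 and 23.3 CPM in EAE, against 39.2, 37.9 and 42.9 CPM in naive libraries. It fell by 0.66 (SE 0.089, edgeR adjusted p = 0.0177), without overlap. Insig1, the INSIG gene that SREBPs induce, had 52.8, 58.2 and 52.4 CPM in EAE, against 79.4, 75.3 and 83.7 CPM in naive libraries. The groups did not overlap, but the change did not pass (-0.55, SE 0.13, edgeR adjusted p = 0.0771). Insig2, whose gene is not driven by SREBPs, had 46.0, 42.4 and 44.95 CPM in EAE, against 42.9, 37.3 and 41.3 CPM in naive libraries (0.13, edgeR adjusted p = 0.503). Scap had 116, 117.5 and 120.0 CPM in EAE, against 113, 114 and 106 CPM in naive libraries, and the groups did not overlap, but its 95% interval of -0.05 to 0.22 spanned 0 (edgeR adjusted p = 0.538).

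The calls depended on single libraries. Without naive replicate 1, 0 members and 2 of all genes were called. Hmgcs1 alone was called without EAE replicate 3, naive replicate 2 or naive replicate 3, and Hmgcs1 and Dhcr7 without EAE replicate 2. Without treated replicate 2, which enters the shared estimate of the spread, Srebf1 was not called and 9 members fell, and without treated replicate 1 or 3, 6 or 12 fell. Without EAE replicate 1, the library with the most choroid plexus marker RNA, 4 members fell (Dhcr7, Hmgcs1, Sqle and Stard4) and Srebf1 rose. EAE replicate 3, which stayed in that fit, had 104 CPM of these markers. DESeq2 called 17 members lower and 1 higher, but it called 1042 of all genes, where edgeR called 184. The sign of each of the 10 called members held in all 18 alternatives. In each of them 19 to 22 of the 32 members had an unadjusted p under 0.05, against 21 in the reported fit. The share of all genes at that p was not counted in the alternatives. The groups did not overlap in any of the 10, so leaving out libraries could hardly turn their sign.

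**Figure D2:**
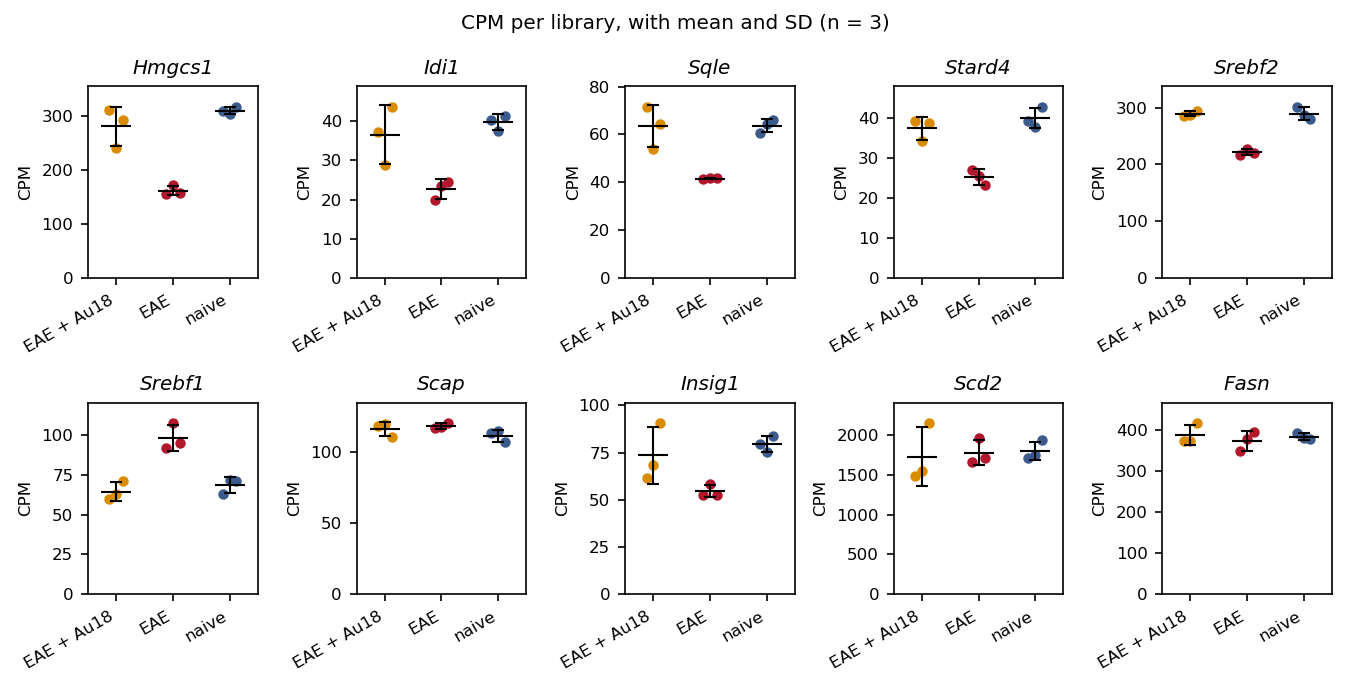
CPM in each library (points, treated shown as EAE + Au18) with mean and SD (bars, n = 3) for 10 genes in treated EAE, EAE and naive cortex, axes from 0. EAE points lie below the others in Hmgcs1, Idi1, Sqle, Stard4, Srebf2 and Insig1 and above them in Srebf1, and the groups overlap in Scd2 and Fasn. Scap is a little higher in EAE than in naive libraries, with treated libraries across both.

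The comparison of treated with untreated EAE asked what Au18(L-NIBC)14 changed in the diseased cortex. It shares the 3 EAE libraries with the comparison above, so that a deviation of those libraries moves both in opposite senses. The 18 sterol enzymes summed to 1044, 906 and 1073 CPM in treated libraries, against 704, 753 and 716 CPM in EAE libraries. Of the 32 members, 4 rose (12.5%), against 0.0912% of all genes, and 1 fell (3.12%), against 0.129% of all genes (0.22% of all genes in either direction). At an unadjusted p under 0.05, 19 members were higher and 2 lower, against 7.43% and 7.65% of all genes. Those that rose were the enzymes Hmgcs1 and Sqle, the regulator Srebf2 and the carrier Stard4. Srebf1 fell. With replicate numbers as a block over 9 libraries, only Hmgcs1 and Srebf1 of the 32 members were called. Without the block the called members were 5 of the 41 genes called in the whole table. The choice of members with earlier results known limits the shares of this comparison as well. In the same comparison all 6 choroid plexus markers were lower at an unadjusted p under 0.05 (median -2.28), as were all 5 leukocyte markers tested (median -1.45), and 8 of 12 myelin markers had a fold change above 0 (median 0.13, 0 called). Of the 6 excitatory neuron markers, 5 had a fold change above 0 and 1 below (median 0.26, 0 called). Every EAE library lay above every treated library in summed choroid plexus markers. The part of these cell types in the result was not tested.

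Hmgcs1 had 310.4, 240.4 and 291 CPM in treated, against 155.5, 171 and 158 CPM in EAE libraries (0.80 on the log2 scale, SE 0.095, edgeR adjusted p = 0.0238). Treated replicate 2 was the lowest of its group and still above the highest EAE library. Sqle had 71.7, 54.1 and 64.3 CPM in treated, against 41.2, 41.8 and 41.5 CPM in EAE libraries (0.61, SE 0.095, edgeR adjusted p = 0.0457). Stard4 had 39.2, 34.2 and 38.9 CPM in treated, against 27.1, 25.5 and 23.3 CPM in EAE libraries (0.57, SE 0.089, edgeR adjusted p = 0.0457). Treated replicate 2 was again the lowest treated library in both, and no treated library overlapped with EAE.

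Srebf2 had 286, 288 and 294 CPM in treated, against 217, 228 and 220.1 CPM in EAE libraries (0.38, SE 0.061, edgeR adjusted p = 0.0457). Srebf1 had 59.8, 62.8 and 71.0 CPM in treated, against 92.2, 108 and 94.8 CPM in EAE libraries (-0.61, SE 0.091, edgeR adjusted p = 0.0456). Both genes separated the groups without overlap and in opposite directions. The ratio of Srebf1 to Srebf2 per length was 0.267, 0.278 and 0.307 in treated and at least 0.541 in EAE libraries.

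Other sterol enzymes did not pass although most lay apart. In 15 of 18 enzymes, and in 20 of 32 members, every treated library lay above every EAE library, as in 9.93% of all genes. In 2 members, Srebf1 and Fads2, every treated library lay below, as in 9.28% of all genes. For the 18 enzymes the median log2 fold change was 0.40, against 0.00 over all genes. Dhcr7 had 33.6, 29.9 and 32.9 CPM in treated, against 22.1, 24.7 and 21.4 CPM in EAE libraries (0.50, edgeR adjusted p = 0.0643). Nsdhl had 26.7, 24.6 and 24.5 CPM in treated, against 15.1, 18.2 and 16.0 CPM in EAE libraries (0.62, edgeR adjusted p = 0.0667). Mvd had 21.4, 17.6 and 23.4 CPM in treated, against 14.2, 16.0 and 13.4 CPM in EAE libraries (0.52, edgeR adjusted p = 0.118). In all 3 the treated values were higher without overlap, and none passed. Idi1 averaged 36.6 ± 7.55 CPM in treated and 22.7 ± 2.53 CPM in EAE cortex (SD, n = 3 each; 0.69, edgeR adjusted p = 0.0948). Lss (-0.00) and Pmvk (0.00) were at the same mean in both groups within their errors, with 95% intervals of -0.29 to 0.28 and -0.24 to 0.24.

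Among the regulators that did not pass, Insig1 had 61.5, 68.3 and 90.6 CPM in treated, against 52.8, 58.2 and 52.4 CPM in EAE libraries (0.43, SE 0.13, edgeR adjusted p = 0.172). Insig2 had 43.0, 44.3 and 37.1 CPM in treated, against 46.0, 42.4 and 44.95 CPM in EAE libraries (-0.10, edgeR adjusted p = 0.646). Scap had 118, 119 and 110.2 CPM in treated, against 116, 117.5 and 120.0 CPM in EAE libraries (-0.03, edgeR adjusted p = 0.886). Insig1 was higher in each treated library, while the groups overlapped in Insig2 and Scap.

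These calls lay close to the threshold. With replicate numbers as a block over 9 libraries, Hmgcs1 and Srebf1 were called (edgeR adjusted p = 0.0308 each), while Sqle and Stard4 (edgeR adjusted p = 0.0536 each) and Srebf2 (edgeR adjusted p = 0.0623) were not. With only treated and EAE libraries in the fit, 0 members were called, with or without the block, and the blocked edgeR adjusted p of the 5 genes were 0.106 to 0.142. Without EAE replicate 1, 2 or 3, treated replicate 3 or naive replicate 2, 0 members were called. Hmgcs1 alone was called without treated replicate 1, naive replicate 1 or naive replicate 3, and Hmgcs1 and Sqle without treated replicate 2. DESeq2 called 11 members higher and 1 lower, but it called 688 of all genes, where edgeR called 41. The sign of the 5 called members held in all 18 alternatives, with log2 fold changes of 0.68 to 0.89 for Hmgcs1, 0.49 to 0.71 for Sqle, 0.35 to 0.40 for Srebf2, 0.50 to 0.62 for Stard4 and -0.73 to -0.54 for Srebf1. With no overlap between the groups in these 5, leaving out libraries could hardly turn their sign.

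**Figure D3:**
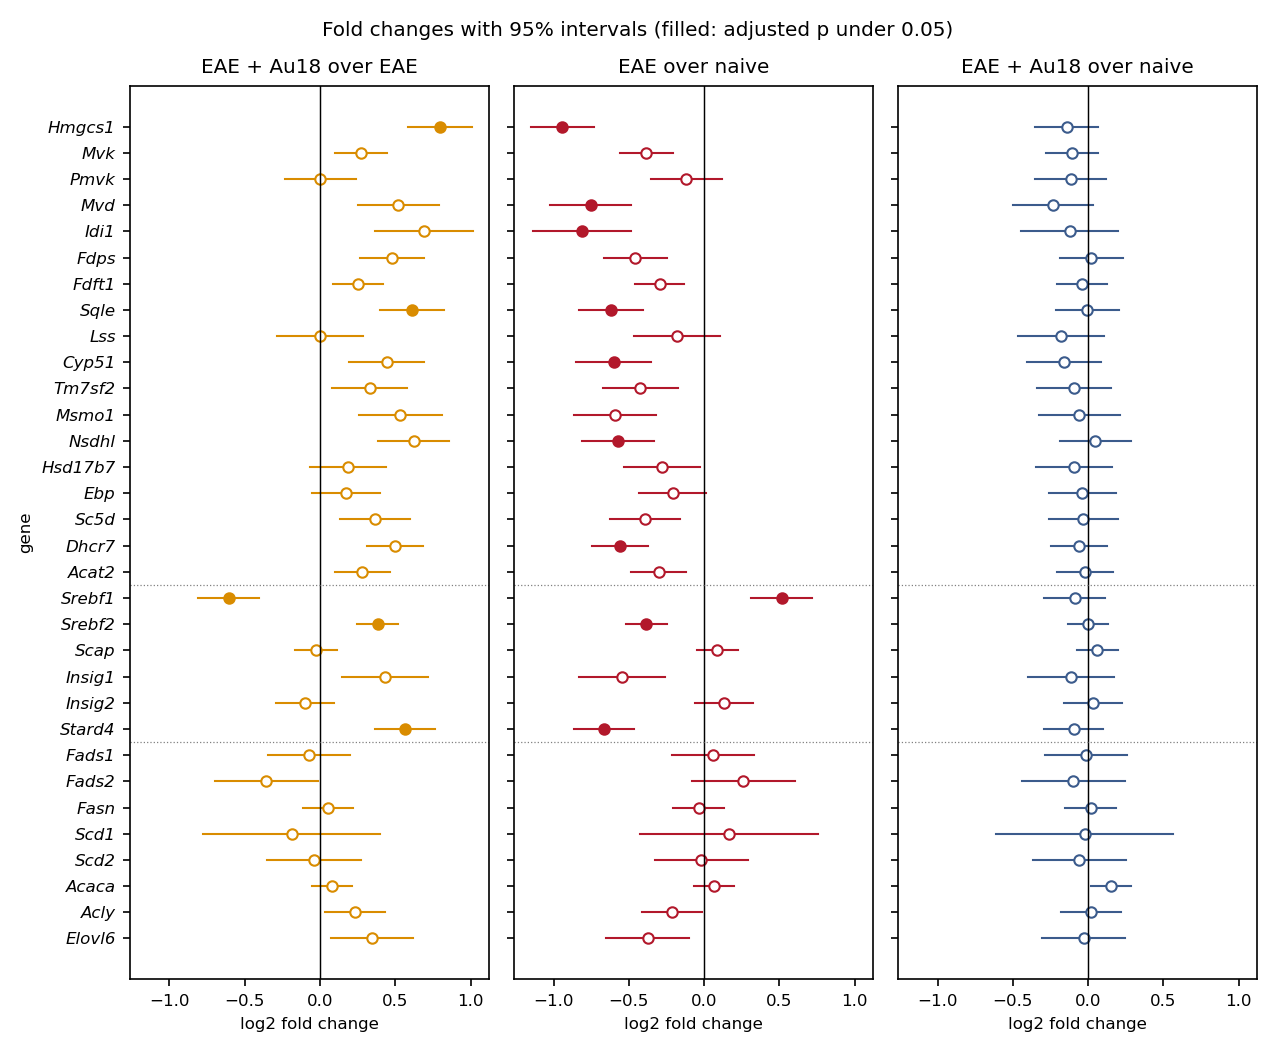
Log2 fold changes (points, filled where the edgeR adjusted p is under 0.05) with 95% intervals for the 32 genes in treated over untreated EAE, EAE over naive and treated EAE over naive. The sterol enzymes lie right of 0 in the first panel except Lss and Pmvk at 0, left of 0 in the second, and near 0 in the third, where no point is filled.

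The comparison of treated EAE with naive cortex asked what set the treated mice apart from healthy ones. The edgeR test called 0 of 32 members and 0 of 18644 genes (0% of all genes), with 1 member (Acaca, higher) at an unadjusted p under 0.05, and DESeq2 called 0 members and 3 of all genes. Without treated replicate 3, the library with the most myelin marker RNA, 8 members had an unadjusted p under 0.05 and 0 were called. The share of all genes at that p was not counted in that fit, so the 8 cannot be read as an excess. In the fit with all libraries such p-values were found in 1.71% of all genes, 1.07% higher and 0.638% lower. The libraries did not overlap in Acaca, higher in treated cortex (3.51% of all genes), or in Mvk and Pmvk, lower in treated cortex (2.74% of all genes; 6.25% in either direction). Srebf2 averaged 289 ± 4.48 CPM in treated and 289 ± 11.6 CPM in naive cortex (SD, n = 3 each), with a 95% interval of the log2 fold change of -0.14 to 0.13. Hmgcs1 averaged 281 ± 36.2 CPM in treated and 309.8 ± 7.25 CPM in naive cortex (-0.14, 95% interval -0.35 to 0.07). Sqle averaged 63.4 ± 8.83 CPM in treated and 63.6 ± 2.74 CPM in naive cortex (-0.01, 95% interval -0.22 to 0.21). Of the 18 enzymes 16 had a fold change below 0, with a median of -0.08. Mvd had the lowest value, at -0.24 (95% interval -0.50 to 0.03).

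Treated libraries differed among themselves. Of the 18 sterol enzymes, 7, 14 and 5 lay below all naive values in treated replicates 1, 2 and 3, against 17 in each EAE library. The mean log2 level of the 18 over the 9-library mean was 0.13, -0.03 and 0.20 in treated replicates 1, 2 and 3, -0.33, -0.22 and -0.30 in EAE and 0.15, 0.21 and 0.20 in naive libraries. Treated replicates 1 and 2 thus lay between EAE and naive libraries on this level, and replicate 2 was nearer to EAE than the other treated libraries. The summed striatal markers were 261, 821 and 283 CPM in treated replicates 1, 2 and 3, and their part in the difference was not tested.

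Fatty acid synthesis was measured as a separate arm. None of its 8 enzymes was called by edgeR in any of the 3 comparisons, and DESeq2 called none either, while the blocked fit of EAE and naive libraries alone called Elovl6 lower in EAE. At an unadjusted p under 0.05, 2 of 8 were lower and 0 higher in EAE than in naive cortex, against 6.97% and 9.42% of all genes. In treated against untreated EAE 2 of 8 were higher and 1 lower, against 7.43% and 7.65% of all genes. In treated against naive cortex 1 of 8 was higher, against 1.07% of all genes. The median log2 fold change of the 8 was 0.02 in EAE against naive and 0.01 in treated against untreated EAE. Their counts summed to 2763 to 3715 CPM in treated, 2976 to 3507 CPM in EAE and 3080 to 3317 CPM in naive libraries. The difference between the arms was not tested.

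Fasn, the synthase that builds palmitate, had 373, 372 and 416 CPM in treated, 347, 377 and 395 CPM in EAE and 393, 379 and 377 CPM in naive libraries. Its 95% interval was -0.20 to 0.13 in EAE against naive. Acaca, acetyl-CoA carboxylase, which makes the building block malonyl-CoA, averaged 99.6 ± 2.72 CPM in treated, 94.0 ± 3.98 CPM in EAE and 89.7 ± 2.30 CPM in naive cortex (SD, n = 3 each). Its treated libraries lay above all naive ones. Acly, which makes cytosolic acetyl-CoA for both arms, and Elovl6, which lengthens palmitate, had the lowest fold changes of the arm in EAE against naive. Acly had -0.21 (edgeR adjusted p = 0.273) and Elovl6 had -0.37 (edgeR adjusted p = 0.169), and neither passed. In treated against untreated EAE both were higher without overlap and did not pass. Acly had 179, 192 and 172 CPM in treated, against 153, 169 and 140.5 CPM in EAE libraries (0.23, edgeR adjusted p = 0.262). Elovl6 had 58.0, 47.9 and 57.2 CPM in treated, against 42.3, 38.7 and 47.5 CPM in EAE libraries (0.34, edgeR adjusted p = 0.232).

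The desaturases varied with the library. Scd1 had 159, 186 and 347 CPM in treated, 242, 304 and 243 CPM in EAE and 218, 241 and 244 CPM in naive libraries. Scd2, the stearoyl-CoA desaturase most abundant here, had 1492, 1546 and 2155 CPM in treated, 1667, 1961 and 1712 CPM in EAE and 1715, 1757 and 1938 CPM in naive libraries. In both genes treated replicate 3 was the highest library of all and treated replicate 1 the lowest, and the same 2 libraries had the most and the least myelin marker RNA (9761 and 2975 CPM). Fads1 and Fads2, the desaturases of polyunsaturated fatty acids, did not pass either. Fads1 averaged 259.99 ± 38.4 CPM in treated, 273 ± 38.1 CPM in EAE and 263 ± 1.58 CPM in naive cortex (SD, n = 3 each), and Fads2 averaged 161 ± 19.9 CPM in treated, 206 ± 38.0 CPM in EAE and 172 ± 25.5 CPM in naive cortex. Fads2 was lower in each treated library than in each EAE library, and did not pass (-0.36, SE 0.15, edgeR adjusted p = 0.314).

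**Figure D4:**
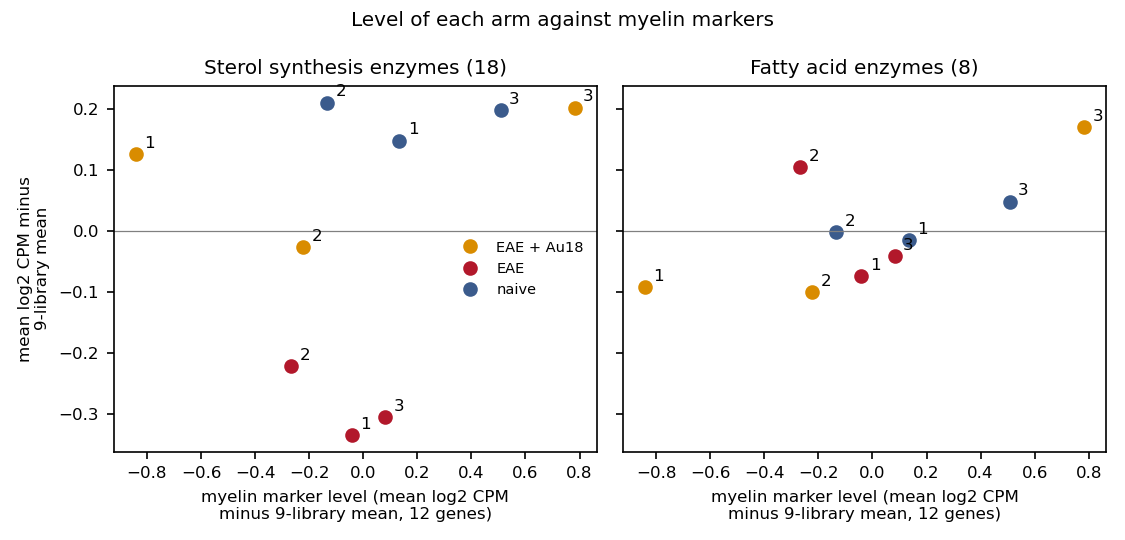
Mean log2 level of the 18 sterol enzymes (left) and the 8 fatty acid enzymes (right) against that of 12 myelin markers, each relative to its 9-library mean, 1 numbered point per library. The 3 EAE libraries are lowest on the left, between -0.33 and -0.22, and treated replicate 3 is highest on the right and in myelin.

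The mean log2 level of the 12 myelin markers over the 9-library mean stood at -0.84, -0.22 and 0.78 in treated replicates 1, 2 and 3, at -0.04, -0.27 and 0.08 in EAE and at 0.13, -0.13 and 0.51 in naive libraries. None of the 12 was called in any comparison, and their part in the levels of either arm was not tested. The summed astrocyte markers, 10 genes, were 4042 to 5831 CPM in treated, 4453 to 6167 CPM in EAE and 4694 to 5216 CPM in naive libraries, and of them Gjb6, a gap junction gene, rose in EAE and fell in treated against untreated EAE. Infiltrating leukocyte markers, 6 genes, summed to 11.5 to 22.7 CPM in treated, 17.8 to 117 CPM in EAE and 11.1 to 12.3 CPM in naive libraries. No marker of any list was at 0 in a whole group.

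Levels between genes were compared as CPM per kb of merged exons in GENCODE M21, which counts exons of all annotated transcripts and so understates genes with long rare ones. In naive cortex the Scd2 level was 330.06 CPM per kb, followed by Hmgcs1 at 67.4, Fads1 at 54.6 and Fads2 at 52.2. In EAE Hmgcs1 was at 35.1 CPM per kb and in treated EAE at 61.1 CPM per kb. Srebf2 was at 40.3 CPM per kb in treated, 30.9 in EAE and 40.3 in naive cortex. Srebf1 was at 11.5 CPM per kb in treated, 17.4 in EAE and 12.2 in naive cortex.

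**Figure D5:**
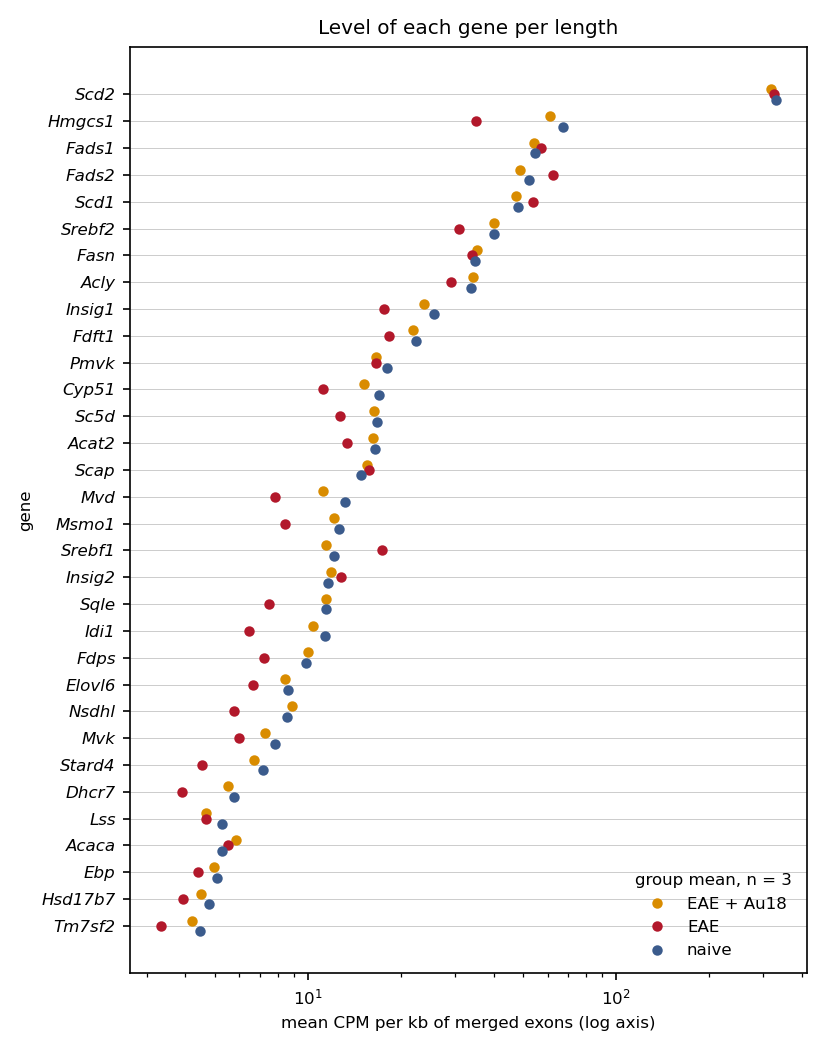
Group means of CPM per kb of merged exons (log axis) for the 32 genes, ordered by the naive level, with treated EAE, EAE and naive cortex as coloured points (n = 3 each). Scd2 lies far right at 317, 326 and 330 CPM per kb, and in most sterol enzymes the EAE point lies left of both others.

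Few genes around these pathways were called. Of 18 further genes of the sterol and isoprenoid branches or of SREBP processing, among them the SREBP proteases Mbtps1 and Mbtps2, 0 were called by edgeR in EAE against naive, with 5 of 18 at an unadjusted p under 0.05 (2 higher and 3 lower), against 16.4% of all genes. In treated against untreated EAE 0 were called, with 9 of 18 at an unadjusted p under 0.05 (6 higher and 3 lower), against 15.1% of all genes. Their median log2 fold changes were -0.04 and 0.03. Tmem97, a sterol-binding protein gene known as an SREBP target and named here after its values were seen, was at 12.6 ± 1.36 CPM in treated, 8.59 ± 1.05 CPM in EAE and 12.9 ± 0.632 CPM in naive cortex (EAE against naive -0.59, edgeR adjusted p = 0.0600). Of 22 further genes of fatty acid elongation and lipogenesis, Hacd2, a dehydratase of fatty acid elongation, rose in EAE against naive (45.5, 49.0 and 45.3 CPM in EAE, against 33.5, 33.8 and 34.8 CPM in naive libraries; 0.45, edgeR adjusted p = 0.0280) and the others were not called in either comparison. Of 14 genes of cholesterol turnover, storage and transport, 0 were called by edgeR in EAE against naive, with 2 at an unadjusted p under 0.05, and 0 in treated against untreated EAE, with 0 at an unadjusted p under 0.05. Cyp46a1, the enzyme by which neurons clear cholesterol as 24-hydroxycholesterol, was at 232 ± 12.003 CPM in treated, 215 ± 18.7 CPM in EAE and 236 ± 18.9 CPM in naive cortex.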

How the data were processed

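The authors deposited 1 table of raw counts per gene symbol for cortex libraries. Quality was checked with FastQC and reads were trimmed with fastp, per the series' design text, which names Hisat2 as the aligner and bowtie2 for quantification. Per the submitters' processing notes FastQC was version 0.11.8 and the build mm10. The sources used here give no annotation, strand setting or counting options. Another 9 columns of the table match no sample here and were not used.

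The tests were run with edgeR 4.0.16 under R 4.3.3 (filterByExpr, TMM, estimateDisp, robust glmQLFit, glmQLFTest) with all 9 libraries and group as the only factor, leaving 6 residual degrees of freedom. Benjamini-Hochberg adjustment was over 18644 genes with a threshold of 0.05. The p-values measure the spread between these samples, which the labels number as brains. SE is the absolute log2 fold change over the square root of F. CPM are scaled by TMM factors. DESeq2 1.42.0 was an alternative. The members and gene lists were chosen with earlier results of these data known. Members shown by library were the 8 sterol or regulator genes with the smallest p among those called, with Srebf1, Srebf2, Scap, Insig1, Insig2, Scd1 and Scd2 added by name. Lss, Fasn, Acly and Elovl6 were also shown by library, chosen after their values were seen.

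Replicate numbers are in the titles. After subtraction of group means, same-numbered treated and EAE libraries correlated at 0.17, 0.24 and 0.24, which met the bar for pairing (each over 0.1). The reported p-values come from the fit without the block, and the blocked ones stand beside the result. Same-numbered EAE and naive libraries correlated at 0.05, 0.11 and 0.36, and treated and naive libraries at -0.25, -0.12 and 0.20, which did not.

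In GENCODE M21, exons overlap a gene on the opposite strand for Hmgcs1, Idi1, Fdft1 (Ctsb), Lss, Cyp51 (Akap9), Srebf1 (Rai1), Scap and Elovl6, and one on the same strand for Fdps, Tm7sf2 (Vps51), Srebf1 and Scd2. Acat2 has a close copy in Acat3, and Scd1 and Scd2 are close relatives. The values of these genes are uncertain to that extent. Gene coordinates come from RefSeq, assembly GRCm38.p6, to which mm10 belongs.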

Additional observations from a re-analysis of the deposited data

How the results depend on the processing

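Treated against untreated EAE had 4 members higher, 1 lower and 41 genes called as reported. Members called higher numbered 2 with RLE size factors, 1 with upper-quartile factors, 11 with DESeq2 (688 genes) and 1 with the replicate block over 9 libraries. With only both groups in the fit, 0 were called higher and 0 lower, without the block (3 genes) and with it (4 genes). Without 1 library, 0 to 2 members were called higher and 0 lower, with 4 to 38 genes, and the median log2 fold change was 0.32 to 0.46 for sterol enzymes and 0.13 to 0.18 for regulators. For EAE against naive, DESeq2 called 17 members lower (1042 genes), and the replicate block with both groups alone called 16 (726 genes). Without 1 library, 0 to 12 members were called lower and 0 to 1 higher, with 2 to 261 genes. For treated EAE against naive, DESeq2 called 3 genes, and the regulators' median was -0.0686 to -0.00627 without 1 library. There 0 to 8 members had an unadjusted p under 0.05 without 1 library (8 without treated replicate 3). The share of all genes at that p was not counted in those fits.

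Leaving out pairs of libraries was chosen after seeing the data. Without EAE replicate 1 and treated replicate 1, treated against untreated EAE had 0 members called and 14 genes, EAE against naive had 3 members lower and 278 genes, and the regulators' median in treated EAE against naive was -0.00645. Without EAE replicate 1 and treated replicate 3, treated against untreated EAE had 0 members higher and 1 lower, with medians of 0.10 for regulators and -0.17 for fatty acid enzymes. EAE against naive then had 289 genes called, and treated EAE against naive a sterol median of -0.16. The cause of these changes was not tested. Elsewhere the replicate block changed no member's sign among those called, and no called member reversed under any alternative. The groups did not overlap in the called members, so leaving out libraries could hardly reverse them. Every member had at least 293 counts in every library, and having 3 libraries per group limits the precision.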
